A study of Mus musculus with 6 samples.

Results

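The genes described here are 33 genes of keratinocytes and the skin barrier, chosen by name: epidermal keratins, the precursors and enzymes of the cornified envelope, desmosome genes and the regulator Trp63. Of these, 25 have a row among the 17352 genes of the deposited table, and the other 8 (Krt2, Krt77, Flg, Flg2, Dsg1a, Dsc1, Calml3 and Klk7) have none and were not analysed here. The tumours came from Panc02 cells, a line of mouse pancreatic cancer, implanted under the skin and taken for RNA sequencing 4 weeks later. In 3 tumours, numbered 3, 4 and 5, the hosts were Anxa1ΔMɸ mice with a myeloid-specific deficiency of Anxa1 (annexin A1); in the other 3, numbered 2, 3 and 5, they were Anxa1flox/flox mice labelled wild type. All 6 labels carry the letters HFD, which are not defined. The Cre line that deleted the gene, and the age and sex of the mice, were not stated in any source used here. The deletion was made in host myeloid cells, not in the implanted tumour cells. Values by tumour are given below in the order 3, 4, 5 for the deficient set and 2, 3, 5 for the wild-type set.

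The epidermis is a stratified epithelium. Its basal cells make keratins 5 and 14 under the transcription factor p63, the cells above them switch to keratins 1 and 10, and the outermost cells crosslink precursor proteins such as loricrin and involucrin into the cornified envelope, while desmosomes hold the layers together. Simple epithelia, such as that of the pancreatic ducts, are marked by keratins 8, 18, 7 and 19. A tumour under the skin can be collected with some overlying skin, so these genes also report on what tissue a sample holds.

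The implied sequencing depth was 37500000 to 41100000 fragments a library, from the spacing of the low values, and 15671 to 16035 genes had a value above 0. FPKM (fragments per kilobase of gene, scaled to the size of the library) is a level per gene length, so levels can be compared between genes. Anxa1, the deleted gene, had an FPKM of 249.9, 330.2 and 290.5 in the deficient set against 341.8, 354.4 and 394.2 in the wild-type set (log2 fold change -0.33, SE 0.12, limma adjusted p = 0.268). Each deficient tumour lay below each wild-type one. Many cell types make annexin A1, so a whole-tumour level does not check a deletion in myeloid cells. Y-linked genes, looked at because of earlier results, separated the groups. All 4 (Ddx3y, Eif2s3y, Kdm5d and Uty) were lower in each deficient than in each wild-type tumour, as were 1219 of all 17352 genes. Ddx3y, an RNA helicase, was at 0.0441, 0.126 and 0 in the deficient set against 3.13, 5.26 and 6.79 in the wild-type set. Whether the sex of the hosts differed between the groups is not stated and was not tested. Where nothing says how the animals were raised or paired, p-values measure only the spread between these tumours.

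The levels went against the name of the gene list. The keratins that define keratinocytes were at or below an FPKM of 1.32 in all 6 tumours, whereas keratins of simple epithelium were abundant. Krt8 had a mean FPKM of 240.9 ± 37.6 (SD, n = 3) in the deficient set and 228.0 ± 27.7 in the wild-type set, and its partner Krt18 had 231.9 ± 26.2 and 222.7 ± 19.5. Together, the 9 epidermal keratins with a row summed to an FPKM of 1.23 to 4.04 a tumour, which was 0.262% to 1.01% of the sum of Krt8 and Krt18. The highest of the 9 was Krt10, at a mean of 1.06 over all tumours, the 34.5th percentile of all genes. Loricrin (Lor), the main envelope precursor, was listed at 0 in 5 tumours and at 0.0150 in deficient 3, where a single fragment was recovered. Krtdap, a secreted protein of differentiating keratinocytes, was likewise seen as 1 fragment, in deficient 3. The 33 genes are therefore called the epidermal list here, and no keratinocyte content is inferred from them.

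**Figure D1:**
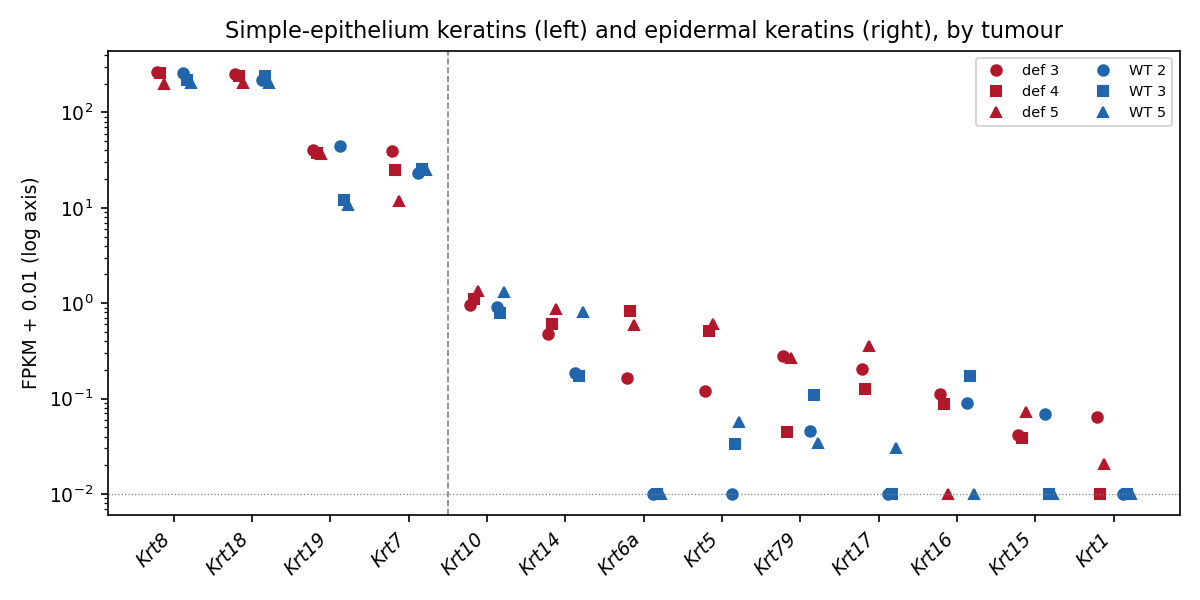
FPKM + 0.01 (log axis) of 4 simple-epithelium keratins, left of the dashed line, and of the 9 epidermal keratins with a row in the table, for each tumour (red, deficient; blue, wild type; one point per tumour). Points on the dotted line are listed at 0; Krt8 and Krt18 lie at or above 197.7 in every tumour and Krt10, the highest epidermal keratin, between 0.778 and 1.32.

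A second set of genes on the list was expressed well above these keratins. Lgals7 (galectin-7, a lectin of stratified epithelia) had the highest mean, an FPKM of 8.81, followed by Trp63 at 6.52, the desmosomal plaque protein Pkp1 at 5.03, the envelope precursor Sprr1a at 4.08, the 14-3-3 protein Sfn at 2.53 and the desmosomal membrane protein Perp at 1.61. These 6 genes had a value above 0.6 in each of the 6 tumours. Sbsn, Tgm1, Sprr1b, Krt10 and Krt14 completed the 11 genes with a mean FPKM of at least 0.5, the minimum for a test, and the other 14 fell below it. Krt14 lay just above the minimum (0.51), and Krt6a (0.260) and Krt5 (0.213) were the nearest below.

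None of the 11 tested genes differed between the groups past an adjusted p of 0.05. Of all 12257 tested genes, 0.979% were called higher and 0.228% lower in deficient tumours by limma with Benjamini-Hochberg adjustment. At an unadjusted p under 0.05 there were 2 of the 11, Sprr1a and Pkp1, against 1852 of the 12257. The log2 fold changes of FPKM + 1 (a scale that understates changes of low genes) were above 0 for 6 of the 11 and below 0 for 5, with a median of 0.077 against 0.019 for all tested genes. Tested genes whose groups did not overlap numbered 0 with deficient above and 1 with wild type above, where 11.8% and 8.31% of all tested genes were so separated.

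**Figure D2:**
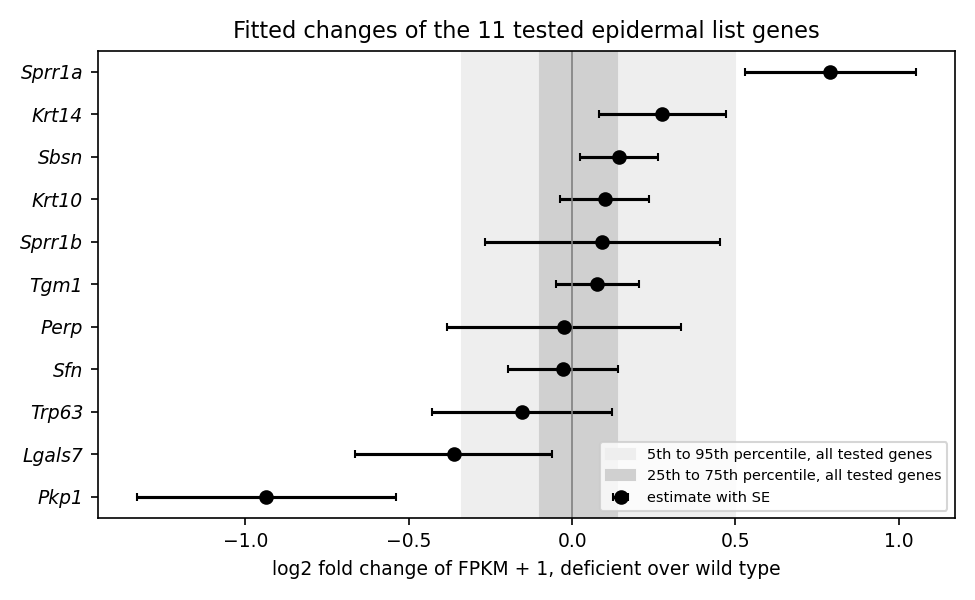
Log2 fold change of FPKM + 1, deficient over wild type, for the 11 tested genes of the epidermal list, with its standard error, over the range of all tested genes (light grey, 5th to 95th percentile; dark grey, 25th to 75th). Sprr1a (0.79) lies above and Pkp1 (-0.94) and Lgals7 (-0.36) lie below the 5th to 95th percentile range of -0.34 to 0.50.

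Trp63 is the regulator without which no stratified epidermis forms in mice. Its FPKM was 9.14, 3.46 and 6.30 in the deficient set against 5.77, 6.48 and 7.95 in the wild-type set. The deficient tumours held the highest and the lowest value, and the groups overlapped (log2 fold change -0.15, SE 0.28, limma adjusted p = 0.845). The files give 1 value per gene, so the isoforms of p63, which differ in function, cannot be told apart.

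The basal keratin Krt14 had an FPKM of 0.466, 0.595 and 0.864 in the deficient set against 0.177, 0.164 and 0.792 in the wild-type set. Wild type 5 lay among the deficient tumours (log2 fold change 0.28, SE 0.19, limma adjusted p = 0.547). These values rested on 30, 42 and 56 recovered fragments against 12, 11 and 53. Krt15, a keratin of basal and hair follicle stem cells, stayed between 0 and 0.0617, with 2 wild-type tumours at 0.

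Among suprabasal keratins, Krt10 had 0.947, 1.11 and 1.32 in the deficient set against 0.898, 0.778 and 1.29 in the wild-type set, with overlapping groups (log2 fold change 0.10, SE 0.14, limma adjusted p = 0.785). Krt1, with which keratin 10 pairs in skin, was listed at 0 in 4 tumours, including all wild-type ones, and reached 0.0545 in deficient 3.

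Of the cornified envelope precursors, Sprr1a stood out in level. Its FPKM was 6.76, 3.05 and 6.75 in the deficient set against 2.56, 3.29 and 2.08 in the wild-type set. Deficient 3 and 5 lay above every wild-type tumour and deficient 4 among them (log2 fold change 0.79, SE 0.26, limma adjusted p = 0.221). Without deficient 4 the log2 fold change was 1.10 and the gene passed (limma adjusted p = 0.0207), in a fit that called 2.2% of all tested genes higher. Its relative Sprr1b followed another order, with 1.96, 0.199 and 0.0309 in the deficient set against 0.472, 0.509 and 0.359 in the wild-type set. The deficient values spread from 63 recovered fragments to 1, on either side of the wild-type tumours (log2 fold change 0.09, SE 0.36, limma adjusted p = 0.931). Members of the Sprr family resemble each other, so reads could be split among them. Involucrin (Ivl) was at 0 in 3 tumours and at most 0.128.

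Lgals7 had an FPKM of 11.02, 7.32 and 4.66 in the deficient set against 6.51, 11.97 and 11.4 in the wild-type set. Deficient 5 was lowest and the groups overlapped (log2 fold change -0.36, SE 0.30, limma adjusted p = 0.620; -0.09 without deficient 5). Sfn, a cell cycle inhibitor of stratified epithelia, had 2.42, 2.42 and 2.57 in the deficient set against 1.92, 2.31 and 3.57 in the wild-type set, a wider spread in the wild type (log2 fold change -0.03, SE 0.17, limma adjusted p = 0.959). Sbsn (suprabasin) had 1.05, 1.12 and 1.13 in the deficient set against 0.692, 0.924 and 1.11 in the wild-type set. Wild type 5 reached the deficient range (log2 fold change 0.14, SE 0.12, limma adjusted p = 0.622).

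Of the transglutaminases, which crosslink the envelope, Tgm1 had an FPKM of 0.907, 0.797 and 0.828 in the deficient set against 0.524, 0.801 and 0.944 in the wild-type set. The wild-type tumours enclosed the deficient ones (log2 fold change 0.08, SE 0.13, limma adjusted p = 0.826). Tgm3 stayed at or below 0.0386 in every tumour.

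Among the desmosome genes, Pkp1 (plakophilin 1, a plaque protein) had an FPKM of 4.87, 4.25 and 0.983 in the deficient set against 8.97, 5.70 and 5.42 in the wild-type set. All deficient tumours lay below all wild-type ones, with deficient 5 far below the rest (log2 fold change -0.94, SE 0.40, limma adjusted p = 0.324). Without deficient 5 the log2 fold change was -0.44 (limma adjusted p = 0.506). Perp, a p63 target of the desmosome in mice, had 3.06, 0.615 and 1.26 in the deficient set against 2.08, 0.703 and 1.97 in the wild-type set, with overlapping groups (log2 fold change -0.02, SE 0.36, limma adjusted p = 0.984). The desmosomal cadherins of the epidermis were near 0: Dsg3 was listed above 0 in deficient 5 alone (0.0128) and Dsc3 in deficient 4 alone (0.00449, 1 recovered fragment).

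**Figure D3:**
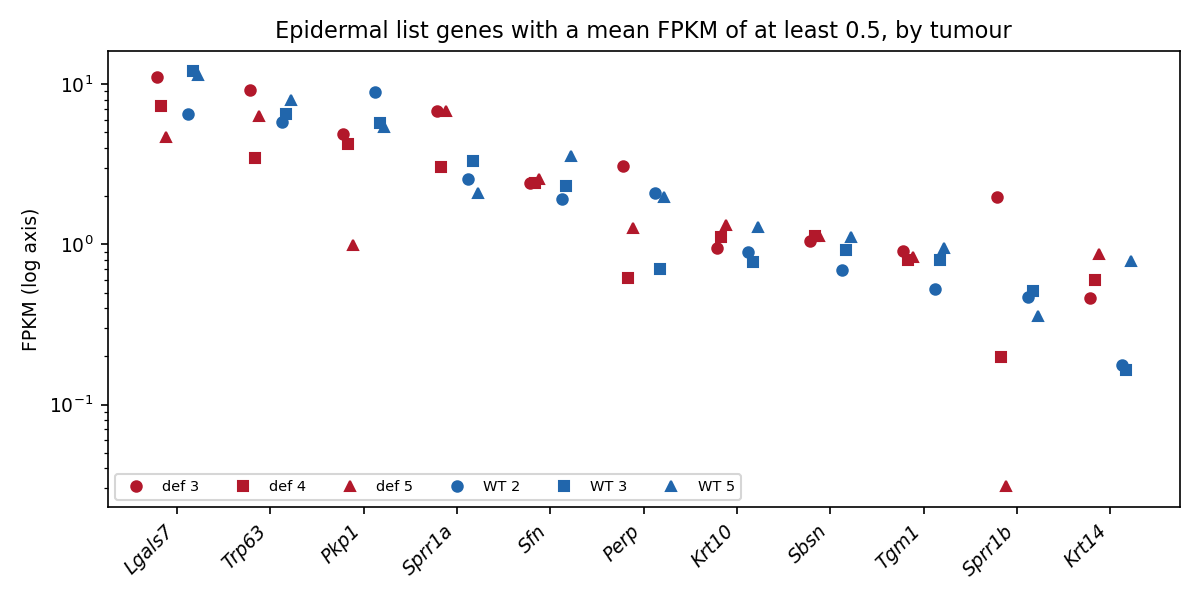
FPKM (log axis) of the 11 genes of the epidermal list with a mean of at least 0.5, one point per tumour (red, deficient 3, 4 and 5; blue, wild type 2, 3 and 5), ordered by mean. Pkp1 is the only one of the 11 whose groups do not overlap, with 0.983 to 4.87 in deficient and 5.42 to 8.97 in wild-type tumours.

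Among the 14 genes too low to be tested, 4 were higher in every deficient tumour than in any wild-type tumour: Krt5, Krt6a, Krt17 and Dsp. The opposite order was seen for 0 of the 14. Of all 5095 genes below the minimum, 8.5% had deficient above and 3.95% wild type above. Krt5, the partner of keratin 14 in basal cells, had an FPKM of 0.109, 0.497 and 0.602 in the deficient set against 0, 0.0233 and 0.0466 in the wild-type set. Behind them lay 9, 45 and 50 fragments against 0, 2 and 4, and the mean FPKM was 17.3 times as high in deficient tumours. In bulk tumours, fewer cells of a type and less RNA per cell cannot be told apart.

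Krt6a is a keratin induced in injured and proliferating epidermis and present in hair follicles. Its FPKM was 0.154, 0.819 and 0.588 in deficient 3, 4 and 5, from 13, 76 and 50 fragments, and it was listed at 0 in all 3 wild-type tumours. A count of 0 allows an FPKM of up to 0.0336 to 0.0341 in those libraries (3 fragments, counting error only). Its near copy Krt6b was listed above 0 in wild type 3 alone, at 0.0115, from 1 fragment. Krt17, also induced on injury, had 0.193, 0.118 and 0.342 in the deficient set, from 9, 6 and 16 fragments, against 0, 0 and 0.0207 in the wild-type set, from 0, 0 and 1. Krt16, which lies beside Krt17 in the RefSeq annotation of GRCm38.p6, did not follow it: it was at 0.102, 0.0776 and 0 in the deficient set against 0.0807, 0.164 and 0 in the wild-type set. Keratins 14, 16 and 17 have similar sequences, and reads could be split among them.

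Dsp (desmoplakin), which ties desmosomes to keratin filaments in all epithelia, had an FPKM of 0.0607, 0.101 and 0.224 in the deficient set against 0, 0.00344 and 0.00344 in the wild-type set. The deficient values came from 17, 31 and 63 fragments and the wild-type ones from 0, 1 and 1. Desmoplakin RNA was barely seen in the wild-type tumours while Jup (plakoglobin), its plaque partner, had a mean FPKM of 42.5 ± 4.24 there (SD, n = 3) and 37.0 ± 6.18 in deficient tumours. Krt79, a keratin of the follicle duct, was higher in deficient 3 and 5 (0.267 and 0.253) than in the other 4 tumours, of which the highest was wild type 3 (0.0980).

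These 4 genes were fitted after their values were seen, in a limma fit of the 17352 genes on log2(FPKM + 0.1). That fit called 0.173% of them higher and 0.098% lower. It called 0 of the 25 genes of the epidermal list, while 5 of the 25 and 2314 of all had an unadjusted p under 0.05. Of the further skin gene lists described below, it called S100a14 and Sprr2a3 higher. The log2 fold change was 2.44 (SE 0.46, limma adjusted p = 0.107) for Krt6a, 1.87 (SE 0.46, limma adjusted p = 0.185) for Krt5, 1.52 (SE 0.27, limma adjusted p = 0.0936) for Krt17 and 1.10 (SE 0.26, limma adjusted p = 0.165) for Dsp. A zero or near-zero group makes these fitted values depend on the 0.1 added. With 3 tumours against 3, an exact two-sided permutation test of a single gene cannot give a p below 0.1.

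**Figure D4:**
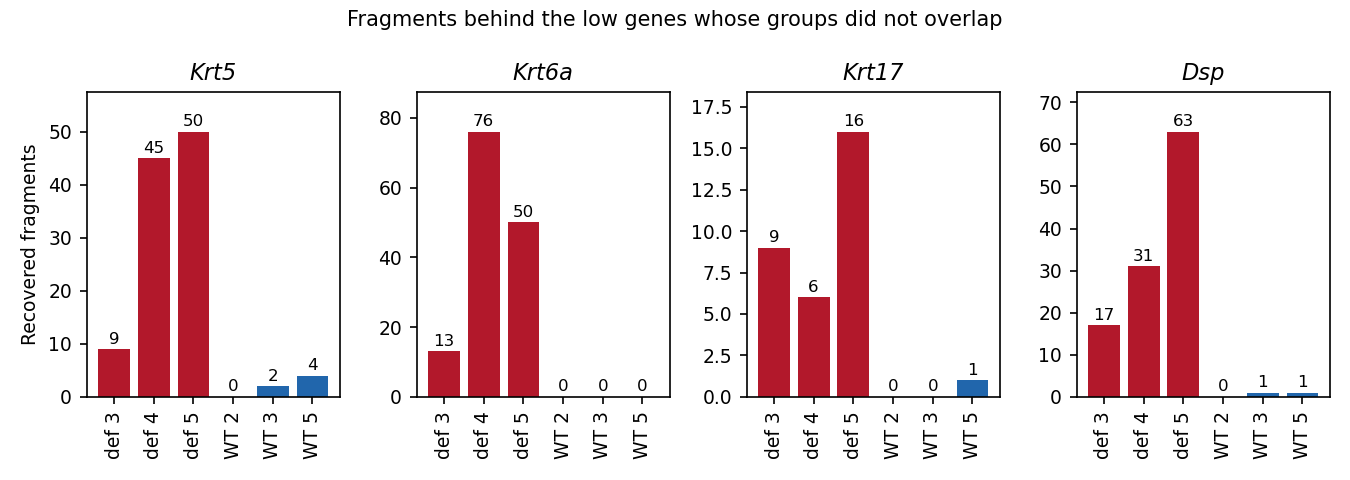
Fragments recovered from the FPKM of Krt5, Krt6a, Krt17 and Dsp in each tumour (red, deficient; blue, wild type; one bar per tumour, axes from 0 and scaled separately). Wild-type tumours hold 0 to 4 fragments of each gene and deficient tumours 6 to 76.

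Promoters are shown for Krt5 and Dsp, which have a promoter window and were higher in each deficient tumour, and for Sprr1a and Lgals7, the highest envelope precursor and the highest gene of the list. RefSeq windows (GRCm38.p6, 250 bases before to 50 after the start) were found for 20 of the 33 genes. They are printed 5′ to 3′, and capitals mark a match, on either strand, to the TATA box TATAAA, the AP-1 motif TGANTCA, the Sp1 GC box GGGCGG or the p53-family half-site, the 10-base element bound by p53 and p63. The marked matches in these 4 windows do not overlap each other.
Krt5 (chr15:101712856-101713155, minus strand): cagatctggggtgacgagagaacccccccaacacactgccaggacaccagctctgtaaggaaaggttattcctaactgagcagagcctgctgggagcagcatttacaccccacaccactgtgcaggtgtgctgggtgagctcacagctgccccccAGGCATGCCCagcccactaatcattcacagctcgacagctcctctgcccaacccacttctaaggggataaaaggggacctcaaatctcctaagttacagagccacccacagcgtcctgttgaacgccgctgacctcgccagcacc
Dsp (chr13:38151044-38151343, plus strand): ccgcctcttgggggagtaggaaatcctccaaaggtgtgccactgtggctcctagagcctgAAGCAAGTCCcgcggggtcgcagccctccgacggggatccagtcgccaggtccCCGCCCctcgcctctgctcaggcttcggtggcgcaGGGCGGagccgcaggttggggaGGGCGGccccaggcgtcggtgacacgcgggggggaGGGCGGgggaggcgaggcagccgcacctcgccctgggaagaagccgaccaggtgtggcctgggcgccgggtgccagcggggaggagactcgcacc
Sprr1a (chr3:92485832-92486131, minus strand): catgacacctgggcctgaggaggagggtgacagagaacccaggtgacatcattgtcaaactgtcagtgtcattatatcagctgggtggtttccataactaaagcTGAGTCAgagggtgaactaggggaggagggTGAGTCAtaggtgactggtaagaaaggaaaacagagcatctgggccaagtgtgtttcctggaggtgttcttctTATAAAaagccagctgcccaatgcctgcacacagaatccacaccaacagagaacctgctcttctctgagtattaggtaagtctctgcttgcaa
Lgals7 (chr7:28864136-28864435, plus strand): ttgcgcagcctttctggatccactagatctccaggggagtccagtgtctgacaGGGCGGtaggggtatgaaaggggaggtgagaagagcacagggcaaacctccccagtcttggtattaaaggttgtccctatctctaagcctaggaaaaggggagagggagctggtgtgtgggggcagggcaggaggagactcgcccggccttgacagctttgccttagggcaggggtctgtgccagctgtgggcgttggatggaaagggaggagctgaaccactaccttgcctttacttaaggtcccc

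Krt5 and Dsp each held 1 p53-family half-site, found in 8.36% of all 32851 RefSeq windows and in 3 of the 21 windows of the list, the third being that of Flg2. Dsp also held 4 GC boxes, a motif in 35.7% of all windows and 4 of the 21. Sprr1a held 1 TATA box and 2 AP-1 motifs. AP-1 motifs occurred in 8 of the 21 windows (Lor, Sprr1b, Sprr1a, Ivl, Flg2, Flg, Sbsn and Krtdap) against 7.81% of all windows, and the TATA box in 8 against 13.6%. Of the 8 genes with an AP-1 motif, Sprr1a, Sprr1b and Sbsn passed the minimum level, while Lor, Ivl and Krtdap were near 0. A match is a description of the window and not a binding site.

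Other genes of stratified epithelium were also mostly low, apart from those of cell attachment and some transcription factors. In 7 further lists of 93 genes, 63 had a row and 24 were tested. Of the 24, 1 was called higher and 0 lower, where 0.979% and 0.228% of all tested genes were so called. The log2 fold change was above 0 in 16 of the 24 (median 0.103), against 6706 of all 12257 tested genes (median 0.019). The called gene was Ly6d, a surface protein of differentiating keratinocytes that also marks B cells and other lymphoid cells. Its FPKM was 4.33, 6.34 and 20.7 in the deficient set against 0.550, 0.260 and 0.558 in the wild-type set (log2 fold change 2.71, SE 0.46, limma adjusted p = 0.0443). It passed in 10 of 17 settings, the reported one included, with limma adjusted p from 0.0019 to 0.196. The call was lost, with log2 fold changes of 2.61 to 3.97, without deficient 3 or without any 1 of the 3 wild-type tumours, and also with no filter (pseudocount 1 or 0.1) or quantile normalization. Of the 24 tested genes, the deficient set lay wholly above the wild-type set in 9 and below it in 2, where 11.8% and 8.31% of all tested genes were so separated. Of the 39 genes under the minimum it lay above in 7 and below in 2 (Klk10 and Cst6), against 8.5% and 3.95% of all genes under the minimum. The 7 above, seen after the fact, include Dsg2, the desmosomal cadherin of simple epithelia, with 0.0925, 0.0675 and 0.193 in the deficient set against 0, 0.00891 and 0.00445 in the wild-type set, and the hemidesmosome collagen Col17a1, with 0.294, 0.220 and 0.225 against 0.0777, 0.0882 and 0.121.

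Of the 7 genes of hemidesmosomes and basement membrane attachment, 0 of 4 tested were called. Itga6 and Itgb4, the integrin pair of hemidesmosomes, had mean FPKM of 11.7 ± 1.32 and 8.89 ± 4.40 in the deficient set against 12.5 ± 1.18 and 12.8 ± 1.19 in the wild-type set (SD, n = 3, each). Deficient 5 was low in Itgb4 (3.95), as in Pkp1. The linker Dst had means of 7.65 and 9.01. Of the 7 other desmosome and plaque genes, 0 of 5 tested were called. Beside Jup, the plaque protein Ppl had means of 12.4 and 14.2, Pkp3 of 3.26 over all tumours and Pkp2 of 2.22 and 3.07.

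Late differentiation genes were mostly low. Of 36 such genes 13 had a row and 4 were tested: Ly6d, Krt80 (means of 2.31 in the deficient set against 1.43), the protease Asprv1 (1.44 and 1.24) and Cdsn, a corneodesmosome protein. Cdsn had an FPKM of 0.978, 0.857 and 0.712 in the deficient set against 0.303, 0.149 and 0.336 in the wild-type set, with no overlap (log2 fold change 0.55, SE 0.12, limma adjusted p = 0.0918). Among 12 epidermal proteases and inhibitors, 0 of 2 tested were called: Klk8, with means of 1.77 and 1.60, and St14 (matriptase), with 1.06, 0.875 and 1.19 in the deficient set against 0.455, 0.208 and 0.346 in the wild-type set (log2 fold change 0.61, SE 0.13, limma adjusted p = 0.0747). Prss8 and Klk10, below the minimum, had means of 0.473 and 0.164 over all tumours. Of 9 genes of the epidermal lipid barrier 0 were called, and Elovl4, Cers3 and Nipal4 had means of 0.0506, 0.0446 and 0.0350 over all tumours.

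Of 11 epidermal transcription factors 6 were tested and 0 called. Klf5 was highest, with 14.2, 19.5 and 8.54 in the deficient set against 19.7, 27.4 and 25.7 in the wild-type set (log2 fold change -0.80, SE 0.26, limma adjusted p = 0.218). Klf4, which drives barrier formation in mice, had 6.73, 5.95 and 6.30 in the deficient set against 5.35, 4.85 and 4.62 in the wild-type set (log2 fold change 0.30, SE 0.10, limma adjusted p = 0.209). Tfap2a (means of 2.26 and 2.07) and Hopx (2.37 and 1.62) were the next highest. Of 11 other genes of stratified epithelium, 0 of 2 tested were called. The tight junction gene Cldn1 had means of 2.03 and 3.77, and Krt76, an oral keratin, had 1.21 ± 0.536 and 0.170 ± 0.200 (SD, n = 3; log2 fold change 0.90, SE 0.21, limma adjusted p = 0.105). Below the minimum, Krt13 had a mean of 0.334 over all tumours, and S100a14, a calcium-binding protein of epithelia, had 0.706, 0.755 and 1.02 in the deficient set against 0, 0.0469 and 0 in the wild-type set. In the fit of low genes S100a14 was called higher (log2 fold change 3.01, SE 0.24, limma adjusted p = 0.0264). So was the envelope precursor Sprr2a3, with 0.407, 0.286 and 0.218 in the deficient set and 0 in each wild-type tumour (limma adjusted p = 0.0360); it has near-identical copies, among which reads could be split.

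Markers of other skin cells were low. Of 21 hair follicle and hair shaft genes 11 had a row, and without Lgr5, a stem cell gene of many epithelia at a mean of 23.9, the other 10 summed to 0.376 to 0.806 a tumour, with overlapping groups. The 4 sebocyte genes with a row (of 6) summed to at most 0.177 and the 3 melanocyte genes (of 5) to at most 0.176. The Langerhans cell gene Cd207 had means of 0.985 and 0.937, and the Merkel cell genes Krt20 and Atoh1 had 0.383 and 0.00202 over all tumours. The skeletal muscle list of 10 genes, which includes markers of the muscle sheet under mouse skin, summed to 25.6 in deficient 4 and 47.9 in wild type 3 and to between 3.13 and 5.57 in the other 4 tumours. Whether these sums bear on the levels of Krt5, Krt6a, Krt17 or Dsp, or on skin collected with a tumour, was not tested.

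Some other epithelial and tissue markers were ordered by group like Krt5, Krt6a, Krt17 and Dsp, while the groups overlapped in others. Of 9 genes of simple or tumour epithelium, 8 were tested, 0 called, and 5 were higher in every deficient than in any wild-type tumour: Epcam, Cdh1, Cldn4 and Muc1 among the tested genes, of which 11.8% overall were so separated, and Esrp1 under the minimum (8.5% overall). Epcam, an adhesion molecule of epithelia, had 1.19, 3.21 and 5.47 in the deficient set against 0.0983, 0.312 and 0.324 in the wild-type set. Cldn4 and Esrp1 were listed at 0 in all wild-type tumours. Krt7 and Krt19 had mean FPKM of 25.3 and 38.2 in the deficient set against 24.7 and 22.5 in the wild-type set, with overlapping groups.

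A list of 15 genes of milk and mammary epithelium, an epithelium that lies in the subcutaneous fat of mice, was chosen after these values were seen. Of these, 11 had a row, and 10 of the 11 were higher in every deficient than in any wild-type tumour (4 of 4 tested genes and 6 of 7 under the minimum, against 11.8% and 8.5% of all such genes). Since the list was chosen on these values, that count supports nothing by itself. Csn3, a milk casein, had 0.724, 1.97 and 2.91 in deficient 3, 4 and 5 and was listed at 0 in all wild-type tumours, and the milk protein gene Wfdc18 had 1.28, 4.25 and 4.98 against 0.0466, 0.378 and 0.0472. The list summed to 6.19, 11.3 and 18.0 in deficient 3, 4 and 5 and to 2.67, 2.77 and 1.46 in the wild-type set, while Csn1s1, Csn1s2a, Csn2 and Wap had no row and were not analysed here. Krt5, Krt6a, Krt17 and Dsp together summed to 0.517, 1.54 and 1.76 and to 0, 0.0268 and 0.0707. Both sums rose in the order deficient 3, 4, 5, but both sets of genes were picked on these values. Singly, Krt5 and Dsp rose in that order, while Krt6a was highest in deficient 4 (0.819) and Krt17 was lowest there (0.118). The 11 adipocyte genes summed to 289.9, 155.8 and 560.1 in the deficient set against 105.2, 66.0 and 175.6 in the wild-type set, so that deficient 4 lay below wild type 5. Fabp4 was the largest term in this sum, with 91.7 in deficient 4 and 118.7 in wild type 5. Of the 11 genes, 10 had a log2 fold change above 0 (median 1.51), 7 an unadjusted p under 0.05 and 0 were called by limma. Higher in each deficient than in each wild-type tumour were 3 of the 11 (Cfd, Cidec and Retn), where 11.8% of all tested genes were so separated. The groups overlapped in the other 8. Cfd, an adipocyte-secreted protease, had 51.4, 32.6 and 148.1 in the deficient set against 9.42, 0.390 and 11.2 in the wild-type set. The part of mammary epithelium, of fat and of the difference in Y-linked genes in the values of the 4 low genes was not tested. In these 6 tumours the difference in Y-linked genes and the genotype cannot be told apart. That limit holds for every comparison of the 2 groups given here, and not for the 4 low genes alone.

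**Figure D5:**
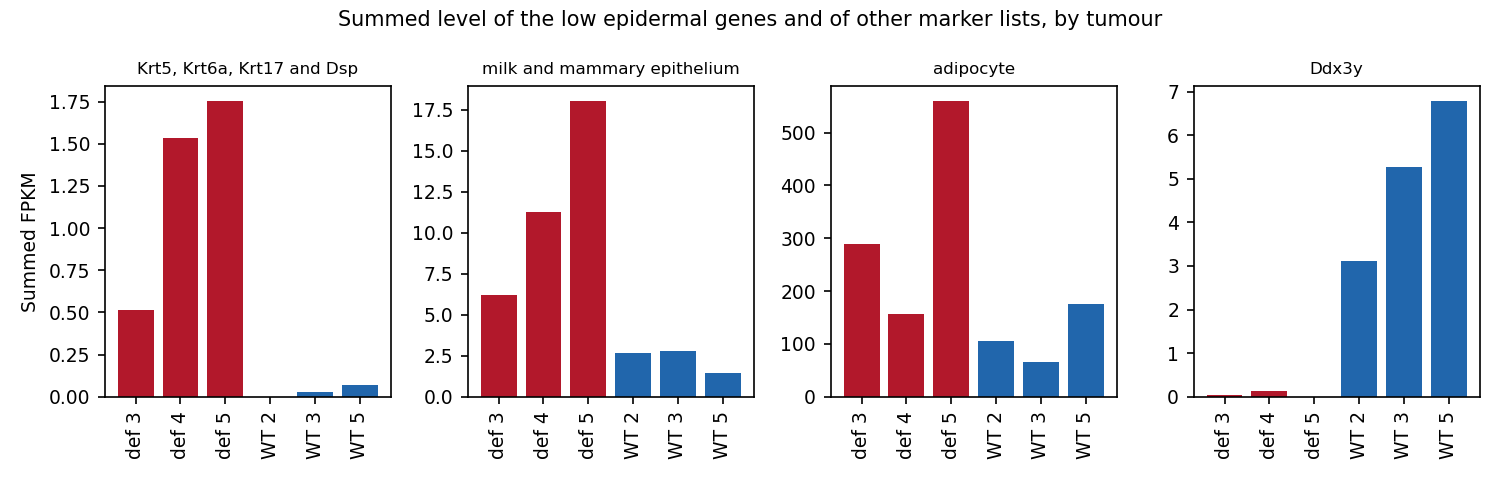
Summed FPKM per tumour (red, deficient; blue, wild type; axes from 0 and scaled separately) of Krt5, Krt6a, Krt17 and Dsp, of the 11 genes of milk and mammary epithelium with a row, of 11 adipocyte genes, and the FPKM of Y-linked Ddx3y. The 4 genes of the first sum were picked because each separates the groups, so their sum must do so too. The milk list was chosen after its values were seen, so the separation of its sum supports nothing by itself. Ddx3y also separates the groups. The adipocyte sum, of which Fabp4 is the largest term, overlaps in 155.8 (deficient 4) and 175.6 (wild type 5). Within it 3 of the 11 genes (Cfd, Cidec and Retn) separate the groups and 8 overlap.

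By tumour, 3, 4 and 5 of the 25 genes of the epidermal list were listed at 0 in deficient 3, 4 and 5, against 9 in each wild-type tumour. Of all 17352 genes, 15838, 16035 and 15820 were above 0 in deficient 3, 4 and 5, against 15671, 15740 and 15758 in wild type 2, 3 and 5. Of the 25 genes 6 were at 0 in all wild-type tumours, as were 670 of all 17352. All 6 are among the 14 genes of the list below the minimum, and they include Krt6a, picked for its order. The share at 0 among all 5095 genes below the minimum was not counted, so the 6 have no background of like level. Every listed gene has a value above 0 in some tumour, so these 6 are listed only through a deficient one. Deficient 5 held the highest value of 9 of the 25 genes and deficient 3 of 8; wild type 2 held that of 1. Among the 11 tested genes, the highest value lay in deficient 3 for 4, in deficient 5 for 3, in wild type 5 for 2 and in wild type 2 and 3 for 1 each. Highest values were not counted over all genes, so these counts have no background. Of the 11 tested genes, 0 lay higher in each deficient than in each wild-type tumour, the order by which the 4 low genes were picked.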

How the data were processed

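Tumour RNA was extracted with TRIzol and sequenced from both ends, per the labels' protocols. HISAT2, HTSeq and R 3.2.0 are named, with no role, by the submitters' processing notes; no source used here gives the genome build. The authors deposited 1 value per gene and library, taken here to be FPKM from the values, since no header names the unit. Fragments were recovered as whole multiples of each gene's step (tolerance 0.02). Depth was set at the most common value implied by step and exon length in GENCODE M21. It was shared by 235 of the 4692 low genes with a step. Fragments are given for genes with at most 100 a library, no common factor and an implied length of 0.67 to 1.5 times the annotated one. For Krt17 and Dsp the implied lengths were 1243 and 7472 bases, against 1551 and 9659 annotated.

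Genes with a mean FPKM of at least 0.5 (12257) entered a limma 3.58.1 model, run in R 4.3.3 (variance trend, group term, log2(FPKM + 1)), two-sided, with Benjamini-Hochberg adjustment over all tested genes, and the fit was tested on simulated data. All 6 libraries entered. Alternatives were other pseudocounts, filters, scalings and thresholds, a block for replicate number, and each library left out in turn; the fit of low genes was added after the data were seen. The members and gene lists were chosen with earlier results of these data known. Genes named are all members and, of each further list, up to 4 with the highest mean and any called, of which some are not reported here; Krt6b, Dsg2, Col17a1, Cst6, Sprr2a3, Cfd, Cidec, Retn, Fabp4, Epcam, Cdh1, Cldn4, Muc1, Esrp1, Lgr5 and genes of the milk list were named after their values were seen.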

Additional observations from a re-analysis of the deposited data

How the results depend on the processing

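The count of epidermal list genes called was 0 in each direction in all settings run except 2: Sprr1a was called higher, making the count 1, with the replicate block (log2 fold change 1.09, limma adjusted p = 0.00875) and without deficient 4 (1.10, limma adjusted p = 0.0207). Over the libraries left out in turn the count called higher was 0 to 1. The median log2 fold change of the tested list genes lay between -0.026 (pseudocount 0.1, or a filter of mean FPKM at least 1) and 0.186 (pseudocount 0.1 with no filter), within the spread between tumours of 0.178 from the reported 0.077. The 11 genes gave 184 values over the alternatives, of which 169 kept direction and side of the threshold, 2 (Sprr1a) passed it and 13 changed sign, none of them called. Sprr1b turned to -0.33 with a pseudocount of 0.1, with or without the filter, and to -0.379 without deficient 3 (range without 1 library -0.379 to 0.382). Perp turned to 0.428 with the replicate block, and to 0.277, 0.036, 0.126 and 0.101 without deficient 4 or 5 or wild type 2 or 5 (range -0.388 to 0.277). Trp63 turned to 0.072 with the block and 0.163 without deficient 4 (range -0.429 to 0.163), Tgm1 to -0.004 with the block and -0.022 without wild type 2 (range -0.022 to 0.154), and Sfn to 0.158 without wild type 5 (range -0.166 to 0.158). The cause of these turns was not tested. Over all tested genes, 120 higher and 28 lower calls became 10 and 8 with no filter, 30 and 17 with no filter and a pseudocount of 0.1, 245 and 63 at an adjusted p under 0.1, and 633 and 354 with the block; quantile normalization gave 74 higher. Leaving out 1 library gave 7 to 270 higher and 3 to 66 lower calls. The labels share replicate numbers 3 and 5 between groups without saying that they pair animals, and the deviations of same-numbered tumours correlated at -0.09 and -0.008, so the block is not used elsewhere. Depth limits the low genes: a gene of the length of Krt6a at 0 fragments may have an FPKM of up to 0.0323 to 0.0355, depending on the library.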
